A study of Mus musculus with 2 samples.

Results

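Scavenger and endocytic receptors are the proteins with which macrophages take up dead cells, lipoproteins, hemoglobin, matrix fragments and microbes. The 9 genes described here were Mrc1, Cd163, Msr1, Marco, Cd36, Stab1, Folr2, Cd5l and Lrp1, taken by symbol from the 27998 genes listed for each library. All 9 were listed and had UMIs in both libraries. The cells were tumor mononuclear phagocytes, sorted as MerTk+ CD64+ from B16, a transplanted mouse melanoma, grown in C57Bl/6 mice. One droplet-based single-cell library came from Fcmr+/+ mice and 1 from Fcmr-/- mice, which lack the IgM receptor Fcmr in every cell type. The number of mice in each library was not given in the sources used here, so each library counted as 1 sample and no test between the genotypes was made.

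Class A scavenger receptors (Msr1, Marco) are trimers that bind modified lipoproteins, bacteria and particles. The mannose receptor Mrc1 and stabilin-1, encoded by Stab1, clear glycoproteins and matrix fragments, and Folr2 encodes a folate receptor that marks macrophages residing in tissues. Cd163 encodes the receptor for hemoglobin bound to haptoglobin, and Cd5l encodes a secreted protein with related cysteine-rich domains. Cd36, a class B receptor, carries oxidized lipoproteins and fatty acids, and Lrp1, of the LDL receptor family, takes up apolipoprotein E, protease complexes and apoptotic cells.

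After filtering, 6352 Fcmr+/+ cells and 7999 Fcmr-/- cells were kept, with a median of 17973.5 and 12911 UMIs (unique molecular identifiers, each counting 1 captured transcript). The libraries shared 73 cell barcodes. Of Fcmr itself 7 UMIs were counted in the Fcmr+/+ library and 6 in the Fcmr-/- library, too few to check the genotypes. Of a list of 10 macrophage genes, 0 Fcmr+/+ cells and 2 Fcmr-/- cells held fewer than 5 UMIs. This limit is low for such abundant genes and cannot show that each cell was a macrophage. Levels are given as CPM, a gene's summed UMIs per 1000000 UMIs of the same cells. The sort gene Mertk was at 62.8 CPM in the Fcmr+/+ and 48.7 CPM in the Fcmr-/- library, and Fcgr1, the gene of CD64, at 250.4 and 394 CPM. Ranges in parentheses after a value are exact 95% intervals of counting error, which say nothing of the spread between mice.

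Upstream sequences are shown for the 3 genes whose levels moved together most across cells, Mrc1, Stab1 and Folr2, and for the 2 genes with the lowest ratio between the libraries, Cd163 and Cd5l. Each window runs from 250 bases before to 50 bases after a gene's RefSeq start, on GRCm38.p6, and is written 5′ to 3′ on the strand of the gene. The windows are chr2:14229164-14229463 on the plus strand for Mrc1, chr14:31168592-31168891 on the minus strand for Stab1 and chr7:101857141-101857440 on the minus strand for Folr2. They are chr6:124304401-124304700 for Cd163 and chr3:87357631-87357930 for Cd5l, both on the plus strand. Folr2 had a further RefSeq start, whose window, chr7:101845282-101845581 on the minus strand, is counted below but not printed. Which start these cells use was not tested. Capitals mark the letters GAGGAA, or TTCCTC where the other strand holds them, a core bound by the macrophage transcription factor PU.1.
Mrc1: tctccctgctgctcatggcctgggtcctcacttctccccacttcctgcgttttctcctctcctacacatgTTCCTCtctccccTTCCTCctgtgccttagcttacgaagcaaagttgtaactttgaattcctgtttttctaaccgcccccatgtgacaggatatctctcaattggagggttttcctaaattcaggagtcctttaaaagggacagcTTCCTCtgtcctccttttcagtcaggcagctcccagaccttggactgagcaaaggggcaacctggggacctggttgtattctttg
Stab1: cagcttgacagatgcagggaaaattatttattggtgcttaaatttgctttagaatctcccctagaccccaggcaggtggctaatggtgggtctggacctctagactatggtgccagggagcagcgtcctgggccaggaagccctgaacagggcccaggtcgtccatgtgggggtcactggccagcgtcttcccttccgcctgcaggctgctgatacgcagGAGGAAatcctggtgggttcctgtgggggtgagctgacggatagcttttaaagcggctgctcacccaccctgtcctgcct
Folr2: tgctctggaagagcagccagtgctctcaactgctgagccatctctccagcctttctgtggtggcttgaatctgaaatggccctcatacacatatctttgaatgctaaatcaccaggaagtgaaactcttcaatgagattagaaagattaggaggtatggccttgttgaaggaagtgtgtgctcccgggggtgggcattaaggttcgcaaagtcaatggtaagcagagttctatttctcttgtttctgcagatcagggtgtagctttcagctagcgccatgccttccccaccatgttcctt
Cd163: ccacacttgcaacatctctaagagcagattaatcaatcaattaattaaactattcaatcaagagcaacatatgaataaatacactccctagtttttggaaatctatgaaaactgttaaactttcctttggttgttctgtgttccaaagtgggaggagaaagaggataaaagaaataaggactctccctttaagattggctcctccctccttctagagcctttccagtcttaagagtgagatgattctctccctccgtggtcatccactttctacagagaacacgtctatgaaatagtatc
Cd5l: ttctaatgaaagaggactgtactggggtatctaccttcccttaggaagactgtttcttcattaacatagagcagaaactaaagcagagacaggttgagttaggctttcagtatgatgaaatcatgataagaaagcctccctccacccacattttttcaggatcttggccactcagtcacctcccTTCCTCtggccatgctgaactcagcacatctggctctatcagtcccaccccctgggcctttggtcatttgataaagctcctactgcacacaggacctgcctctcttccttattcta
The GAGGAA letters were in 4 of the 9 windows found for 8 of the genes, 3 times in that of Mrc1 and 1 time each in those of Stab1, Cd5l and Marco, and in 28.3% of 32851 RefSeq windows. On either strand, TGCTGA, part of a site bound by Maf, was in 5 of the 9 windows, each window of Folr2 among them, and in 19.5% of all windows. AGAACA, part of a site for the glucocorticoid receptor, was in 2 of the 9 and in 19.0% of all windows. It had 2 copies in the Cd163 window and 1 in the Folr2 window that is not printed. The core of the interferon-stimulated response element was in 0 of the 9 and in 3.44% of all windows. TTCNNNGAA, a STAT element, was in 1 of the 9 and in 8.30% of all windows, and the form with 1 more base between its arms, bound by STAT6, in 2 and 6.95%. CACGTG, bound by MiT factors, was in 0 of the 9 and in 7.15%. A match describes these letters only and was not tested as a binding site.

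To see how the absence of Fcmr went with these genes, levels were compared between the libraries. Cd163 and Cd5l were lower in Fcmr-/- cells by more than 1.5-fold, Mrc1 and Folr2 were lower by slightly less, and Msr1, Cd36 and Lrp1 were higher by smaller amounts. The count lower by 1.5-fold or more was thus 2 of 9, beside 2.17% of the 8701 genes with at least 5 CPM in either library. The count higher by 1.5-fold or more was 0 of 9, beside 2.64% of those genes. Log2 ratios are Fcmr-/- over Fcmr+/+ throughout, and their median was -0.036 over the 9 genes and 0.00 over all 8701. Adding the CPM of all 9 gave 2745 in Fcmr+/+ cells and 2482 in Fcmr-/- cells.

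Cd163 (chromosome 6) stood at 26.5 CPM (25.6 to 27.4) in the Fcmr+/+ library and at 9.35 CPM (8.82 to 9.90) in the Fcmr-/- library. The intervals did not overlap, and the log2 ratio was -1.50 (-1.60 to -1.41). A UMI of Cd163 was found in 20.7% of Fcmr+/+ cells and 5.31% of Fcmr-/- cells. With every cell thinned to 5000 UMIs, so that depth was equal, the shares were 8.03% and 2.20%. The hemoglobin receptor was seen in fewer Fcmr-/- cells at equal depth, while a thinned cell with a UMI held 1.60 of them on average in the Fcmr+/+ library and 1.76 in the Fcmr-/- library. Before thinning these averages were 2.58 and 2.74.

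Cd5l (chromosome 3) stood at 25.99 CPM in the Fcmr+/+ library and at 8.47 CPM in the Fcmr-/- library, a log2 ratio of -1.62 (-1.72 to -1.52). A UMI was found in 11.04% of Fcmr+/+ cells and 5.80% of Fcmr-/- cells, and at equal depth in 4.64% and 2.60%. Its UMIs were concentrated in few cells. The 131 Fcmr+/+ cells with at least 5 UMIs held 77.1% of all its UMIs there, with up to 150 in 1 cell, and the 44 such Fcmr-/- cells held 48.1%, with up to 30 in 1 cell. With the CPM of single cells averaged, which gives each cell the same weight, the log2 ratio of Cd5l was -1.18.

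Mrc1 (chromosome 2) stood at 907 CPM (902 to 912) in the Fcmr+/+ library and at 627 CPM (623 to 631) in the Fcmr-/- library, which was 1.45-fold lower. Folr2 (chromosome 7) stood at 242 CPM (239.7 to 245) and 165 CPM (162 to 167), which was 1.47-fold lower. Both fell just short of the limit of 1.5-fold. At equal depth Mrc1 was found in 85.8% of Fcmr+/+ cells and 74.3% of Fcmr-/- cells, and Folr2 in 50.5% and 39.4%. The receptors for mannose and folate were thus lower in Fcmr-/- cells both in level and in the share of cells.

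Stab1 (chromosome 14) stood at 349.7 CPM (346 to 353) in the Fcmr+/+ library and at 341 CPM (338 to 344) in the Fcmr-/- library, a log2 ratio of -0.036 (-0.06 to -0.02). It was found in 61.1% and 60.5% of cells at equal depth, so the stabilin differed little between the libraries although the mannose receptor, its closest partner over cells among the 9, differed by 1.45-fold.

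Msr1 (chromosome 8) stood at 308 CPM (305 to 311) in the Fcmr+/+ library and at 377 CPM (374 to 380.4) in the Fcmr-/- library, a log2 ratio of 0.29 (0.27 to 0.31). At equal depth it was found in 70.6% and 77.5% of cells. Marco (chromosome 1), the other class A receptor, was rare, at 7.51 and 8.38 CPM. Its UMIs came mostly from the 45 Fcmr+/+ cells and 48 Fcmr-/- cells with at least 5 UMIs, which held 70.7% and 77.3% of them. The log2 ratio of Marco was 0.16 (0.03 to 0.29), and it turned to -0.04 when single cells were averaged, so no direction is given for it.

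Cd36 (chromosome 5) stood at 497 CPM (493 to 501) in the Fcmr+/+ library and at 537 CPM (533 to 542) in the Fcmr-/- library, a log2 ratio of 0.11 (0.10 to 0.13). Lrp1 (chromosome 10) stood at 381 CPM (378 to 384) and 409 CPM (405 to 412), a log2 ratio of 0.10 (0.08 to 0.12). Both uptake receptors for lipid cargo were thus slightly higher in Fcmr-/- cells, by less than the 1.5-fold limit. Such ratios were common: 73.3% of the 8701 genes had a lower ratio than Cd36 and 70.9% a lower ratio than Lrp1.

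**Figure D1:**
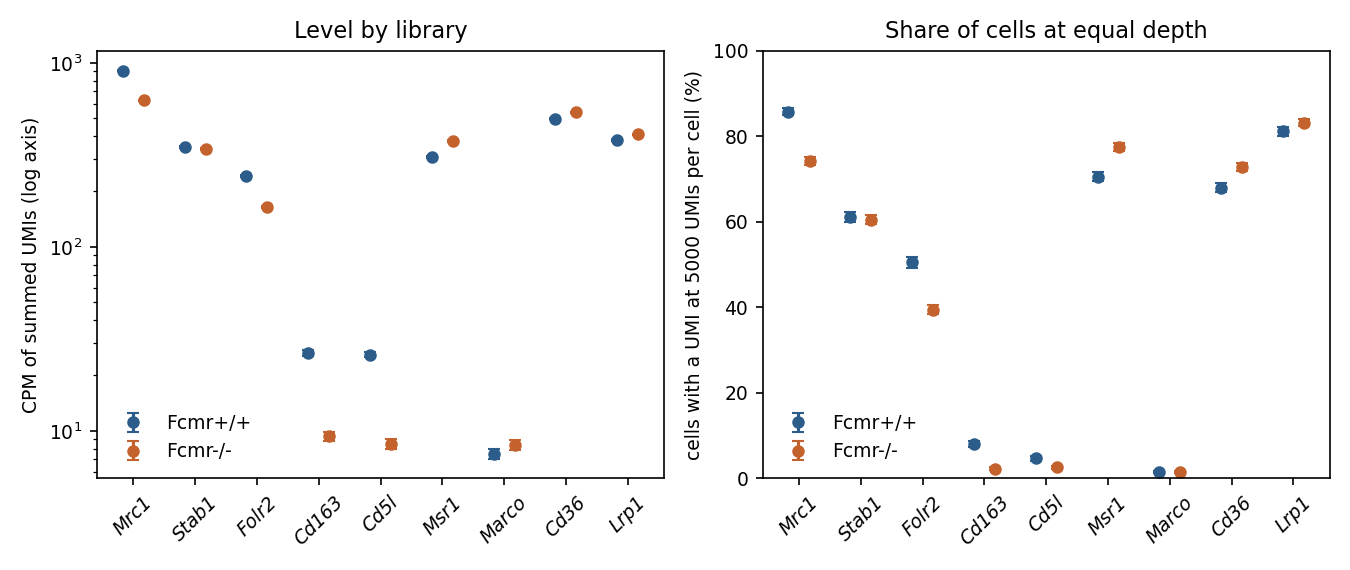
Left, CPM of the summed UMIs (log axis) of the 9 genes in the Fcmr+/+ library (blue) and the Fcmr-/- library (orange). Right, percent of cells with a UMI after each cell was thinned to 5000 UMIs. Bars are exact 95% intervals of counting error and mostly lie within the points. Cd163 and Cd5l sit furthest apart between the libraries, at 26.5 against 9.35 CPM and at 25.99 against 8.47 CPM.

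To place the genes among macrophage states, all cells were clustered together with the 9 genes left out of the variable genes, which gave 10 clusters. Clusters are given by number and by some of their 10 leading genes and were not named as cell types. Cluster 1 (Iigp1, Cxcl9, Gbp4) was 95.9% Fcmr-/- cells, with 102 Fcmr+/+ and 2369 Fcmr-/- cells. Cluster 2 was led by Ccl17, Il1r2 and Retnla, cluster 3 by Tfrc, Gas6 and Slc40a1, cluster 4 by Ppbp, Cxcl3 and Ccl24, and cluster 5 by Hbb-bs, Inhba, Adm and Nos2. The first of these, a hemoglobin gene of red cells, was 89.3-fold above other cells in cluster 5, where 5 of 5 erythroid genes were at least 2-fold up with a summed 237.9 CPM. Cluster 6 was led by genes of cell division (Nusap1, Cenpf, Plk1), cluster 7 was led by Acp5, Cyp4f18 and Apoe, cluster 8 by Ifit3b, Rsad2 and Ifit1, cluster 9 by Mfge8, Spp1 and Gpnmb, and cluster 10 by Adm, Dct and Mmp12. In cluster 10, 8 of 8 melanoma genes, Gpnmb among them, were at least 2-fold up, with a summed 2246 CPM. In cluster 9 this held for 1 of 8, with a summed 3309 CPM, of which Gpnmb, which macrophages also express, made up 3251 CPM. The part of tumor RNA in the levels of these clusters was not tested. Cluster 3 held 21.5% of Fcmr+/+ cells and 6.35% of Fcmr-/- cells, and cluster 2 held 19.98% and 10.3%.

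Mrc1 and Stab1 were highest in cluster 3, the cluster with iron handling genes among its leaders, in both libraries. Mrc1 reached 1286 CPM there in Fcmr+/+ cells and 1135 in Fcmr-/- cells, followed by cluster 6 at 1010 and 804 CPM. It was lowest in cluster 8, led by interferon response genes, at 364 and 268 CPM. That was within counting error of the 366 and 285 CPM in cluster 5. Stab1 reached 555 CPM in Fcmr+/+ cells and 671 CPM in Fcmr-/- cells in cluster 3, and again cluster 6 came next, at 477 and 502 CPM. Its lowest values were 117 CPM in cluster 8 for Fcmr+/+ cells and 121 CPM in cluster 5 for Fcmr-/- cells. For both genes the interval of cluster 3 lay above that of cluster 6 in each library.

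Folr2 was highest in cluster 3 in Fcmr+/+ cells, at 348 CPM, within counting error of the 342 CPM in cluster 10. In Fcmr-/- cells it was highest in cluster 2, at 301 CPM, above the 266 CPM of cluster 10 and the 258 CPM of cluster 3. Cluster 2 was the only cluster where Folr2 was higher in Fcmr-/- cells beyond counting error, at 201 CPM in Fcmr+/+ cells and a log2 ratio of 0.58 (0.52 to 0.64). In the same cluster 9 of 10 dendritic cell markers were at least 2-fold above other cells, with a summed level of 105 CPM beside 16346 CPM for the macrophage markers, and the part of such cells in this value was not tested.

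Cd163 had its highest level in cluster 2 in both libraries, at 38.6 CPM in Fcmr+/+ cells and 38.3 CPM in Fcmr-/- cells. In Fcmr+/+ cells it was close behind in clusters 7 and 3, at 37.1 and 33.6 CPM, whereas in Fcmr-/- cells these had 2.61 and 20.8 CPM. Of its UMIs, cluster 2 held 27.4% in the Fcmr+/+ library and 40.3% in the Fcmr-/- library. The level of the hemoglobin receptor was thus nearly equal between the libraries in cluster 2, with a log2 ratio of -0.01 (-0.18 to 0.15), and furthest apart in cluster 7, at -3.83 (-4.84 to -2.97). The share of cells was less equal in cluster 2, with a UMI in 9.54% of Fcmr+/+ and 7.62% of Fcmr-/- cells at equal depth. Cells with a UMI of Cd163 were rarest in cluster 5 of the Fcmr+/+ library, at 4.13% with a median depth of 11008.5 UMIs per cell, and in the Fcmr-/- library its lowest level was 0.749 CPM, in cluster 9. The sort held no cell type that should lack the gene, so the share that free RNA alone would give was not measured.

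Cd5l was highest in cluster 10 in Fcmr+/+ cells, at 75.8 CPM, with 41.5 CPM in cluster 3. In Fcmr-/- cells these 2 clusters had 12.5 CPM each, and the highest level was in cluster 9, at 31.97 CPM, within counting error of the 26.1 CPM of cluster 7. In cluster 10, 31 of 403 Fcmr+/+ cells and 2 of 176 Fcmr-/- cells held at least 5 UMIs of Cd5l. In cluster 3 these were 53 of 1367 and 4 of 508 cells. The Fcmr+/+ cells were also deeper. Their median was 20930 UMIs against 15555.5 in cluster 10, and 22950 against 15810 in cluster 3. The clusters highest in this transcript were thus not the same in the 2 libraries, and few cells carry each value.

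Marco was highest in clusters 3 and 10 in both libraries, at 16.4 and 11.5 CPM in Fcmr+/+ cells and at 24.9 and 34.4 CPM in Fcmr-/- cells, where the intervals of both clusters overlapped. Cells with at least 5 UMIs numbered 29 and 4 in these clusters in the Fcmr+/+ library and 3 and 5 in the Fcmr-/- library. In cluster 3 a UMI was found in 8.19% of Fcmr+/+ and 3.54% of Fcmr-/- cells, against the direction of the CPM. Few cells thus carry each value of Marco. A further 41.95% of its Fcmr-/- UMIs lay in cluster 1, which held 29.6% of Fcmr-/- cells. Its level there was 10.1 CPM, beside 8.38 CPM in the whole Fcmr-/- library, and the Fcmr+/+ cells of the cluster had 5 UMIs. Cd36 was highest in cluster 9, at 937 and 1363 CPM, and next in cluster 10, at 897 and 1143 CPM, which in Fcmr+/+ cells overlapped within counting error. Its lowest levels were 249 CPM in cluster 8 of Fcmr+/+ cells and 280.5 CPM in cluster 2 of Fcmr-/- cells. Msr1 and Lrp1 varied least among clusters. The highest cluster exceeded the lowest 1.33-fold for Msr1 and 1.52-fold for Lrp1 in Fcmr+/+ cells, and 1.54-fold and 1.63-fold in Fcmr-/- cells. Both were highest in cluster 4, led by chemokine genes, within counting error of the next cluster in each library.

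**Figure D2:**
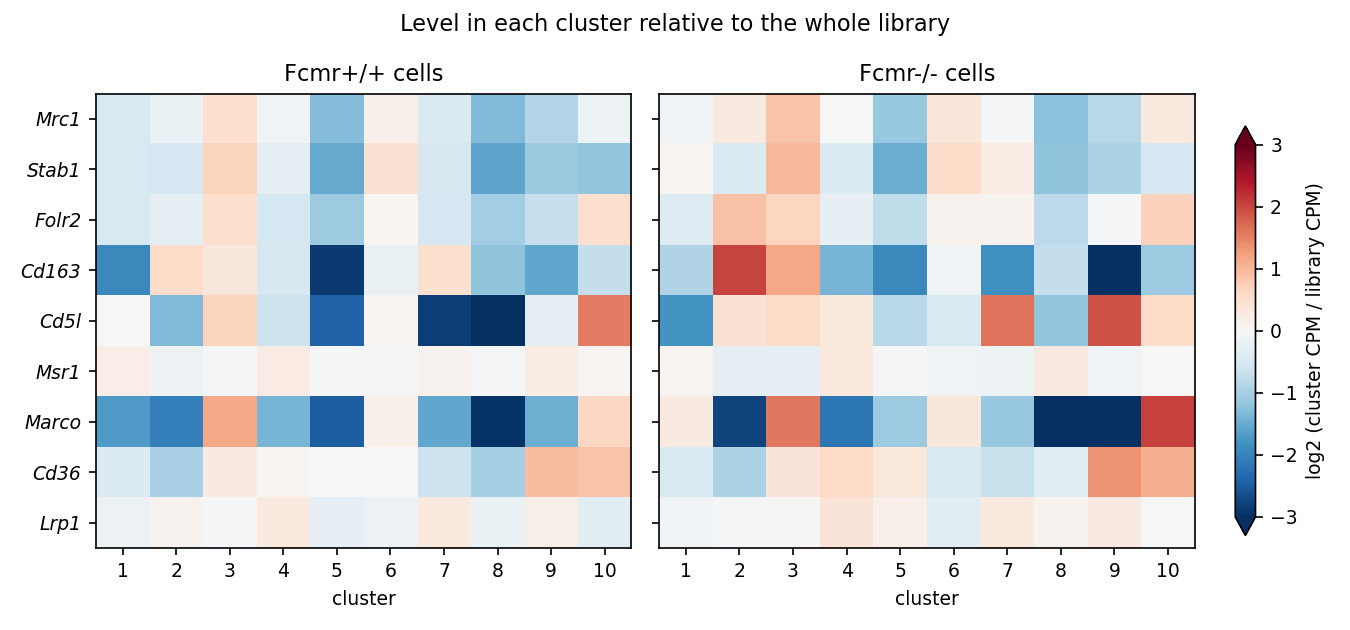
Level of each gene (rows) in clusters 1 to 10 (columns) in Fcmr+/+ cells (left) and Fcmr-/- cells (right), as log2 of the cluster's CPM over the CPM of the whole library. Colours stop at 3 in either direction. Mrc1 and Stab1 are red in cluster 3 on both sides, Msr1 and Lrp1 stay near white, and Cd5l changes its highest cluster from 10 to 9.

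Since the clusters took different shares of the libraries, the genotypes were also compared within clusters. Of the 88 pairs of a gene and a cluster with at least 20 UMIs, 46.6% were lower in Fcmr-/- cells, beside 45.6% of 86529 such pairs over all genes. The genes divided by name. Mrc1 and Cd163 were lower in Fcmr-/- cells in 10 of 10 clusters, which 5.47% of 8525 genes with enough UMIs in each cluster also were. Msr1 and Cd36 were higher in 9 of 10 clusters, and Stab1 and Lrp1 in 8 of 10, counts for which the share of all genes is not given here. These counts include values within counting error, which were those of Cd163 in clusters 1, 2 and 5, Msr1 in clusters 7 and 9, Cd36 in clusters 1 and 7, Stab1 in clusters 5 and 9 and Lrp1 in cluster 6.

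The difference of Mrc1 within clusters ran from -0.07 in cluster 2 to -0.50 in cluster 9 on the log2 scale. Cd163 was lower by 1.5-fold or more in 7 of 10 clusters, and Cd5l was lower by that much in 5 and higher by that much in 2. Over all genes, 3.8% of pairs were lower and 5.03% higher by 1.5-fold or more. Marco was higher by 1.5-fold or more in 4 of the 8 clusters with enough UMIs and lower by that much in 1, values that few cells carry. Msr1, Cd36, Stab1 and Lrp1 were thus higher inside most clusters, mostly by less than 1.5-fold, and the mannose and hemoglobin receptors were lower. Over all genes, too, fewer pairs were lower than higher, with 45.6% lower.

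Weighting the Fcmr-/- clusters by their shares in the Fcmr+/+ library gives the ratio at a common mix of states. On this scale the log2 ratio of Mrc1 was -0.21 in place of -0.53, and that of Folr2 was -0.18 in place of -0.56. Cd163 went from -1.50 to -0.79 and Cd5l from -1.62 to -1.18. Stab1 went from -0.036 to 0.20, and Msr1, Cd36, Lrp1 and Marco had 0.19, 0.25, 0.14 and 0.65. The value of Marco rests on few cells. The 4 genes that were lower in Fcmr-/- cells were lower by less at a common mix, and Cd163 and Cd5l still passed 1.5-fold. With 20 principal components in place of 10, Cd36 came to -0.034 on this scale.

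**Figure D3:**
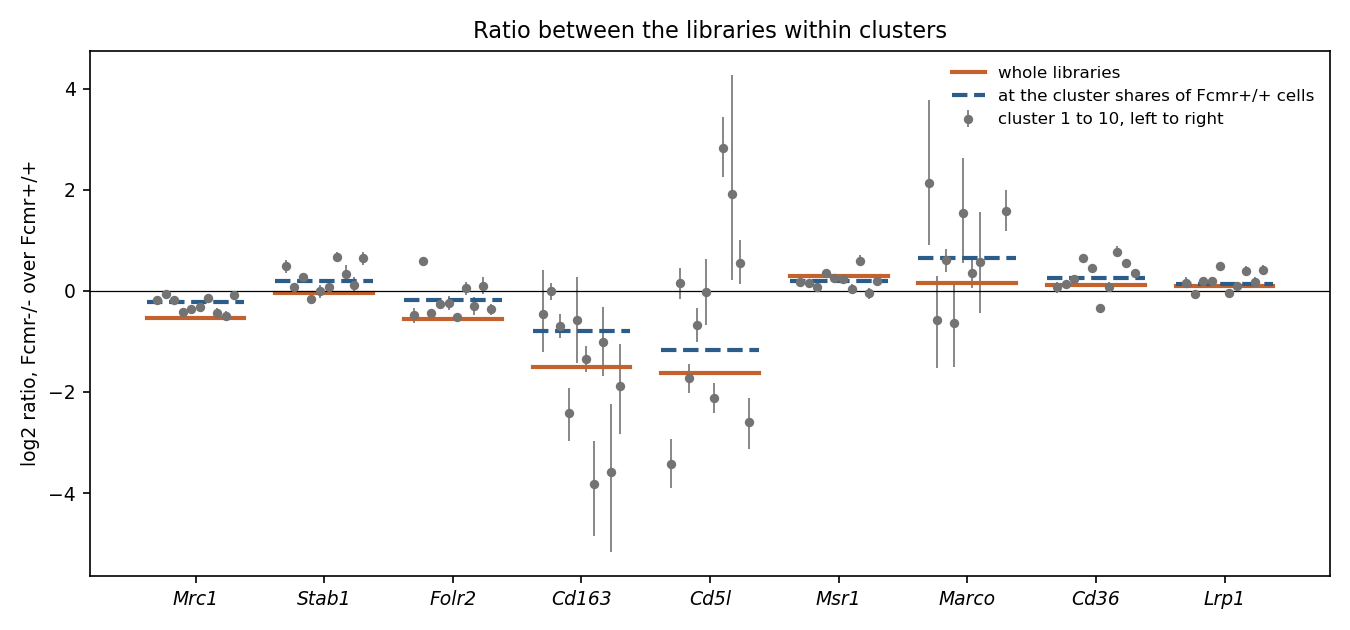
Log2 ratio of CPM in Fcmr-/- over Fcmr+/+ cells for each gene. Grey points are clusters 1 to 10 from left to right with exact 95% intervals of counting error (clusters under 20 UMIs left out), the orange line is the whole library and the dashed blue line the value at the cluster shares of Fcmr+/+ cells. Mrc1 lies below 0 in all 10 clusters, and Cd5l spans from -3.42 to 2.83.

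Whether the genes are used by the same cells was read from Pearson correlations of log2(1 + UMIs) over cells thinned to 5000 UMIs. Mrc1, Stab1 and Folr2 formed 1 group in both libraries. For Mrc1 and Stab1 r was 0.40 in Fcmr+/+ and 0.40 in Fcmr-/- cells, for Mrc1 and Folr2 0.28 and 0.28, and for Folr2 and Stab1 0.22 and 0.21. These 3 of the 36 pairs had r of at least 0.2 in both libraries, beside 0.0607% of all pairs of 5033 genes with at least 20 CPM, and r is held down for genes with few UMIs. Centred on cluster means, Mrc1 and Stab1 still had 0.26 and 0.31.

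The other pairs were weak, with a median over all 36 of 0.05 in Fcmr+/+ cells and 0.03 in Fcmr-/- cells. Within the set Cd163 had its highest r with Mrc1 in Fcmr+/+ cells, at 0.14, where r with Folr2 was 0.10, and with Folr2 in Fcmr-/- cells, at 0.19, where r with Mrc1 was 0.14. Cd36 with Folr2 had 0.18 in Fcmr+/+ cells and 0.08 in Fcmr-/- cells, and Cd36 with Mrc1 had 0.13 and -0.00. Msr1 and Marco, both class A receptors, had -0.01 and -0.01. At equal depth 46.3% of Fcmr+/+ cells and 33.3% of Fcmr-/- cells held UMIs of both Mrc1 and Folr2. If the genes were found independently of each other, these shares would be 43.3% and 29.3%, so most of the difference follows from the share of cells with each gene. Mrc1, Msr1, Cd36, Stab1 and Lrp1 together were found in 25.2% and 25.6% of cells, and the median cell held 4 of the 9 genes in each library.

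**Figure D4:**
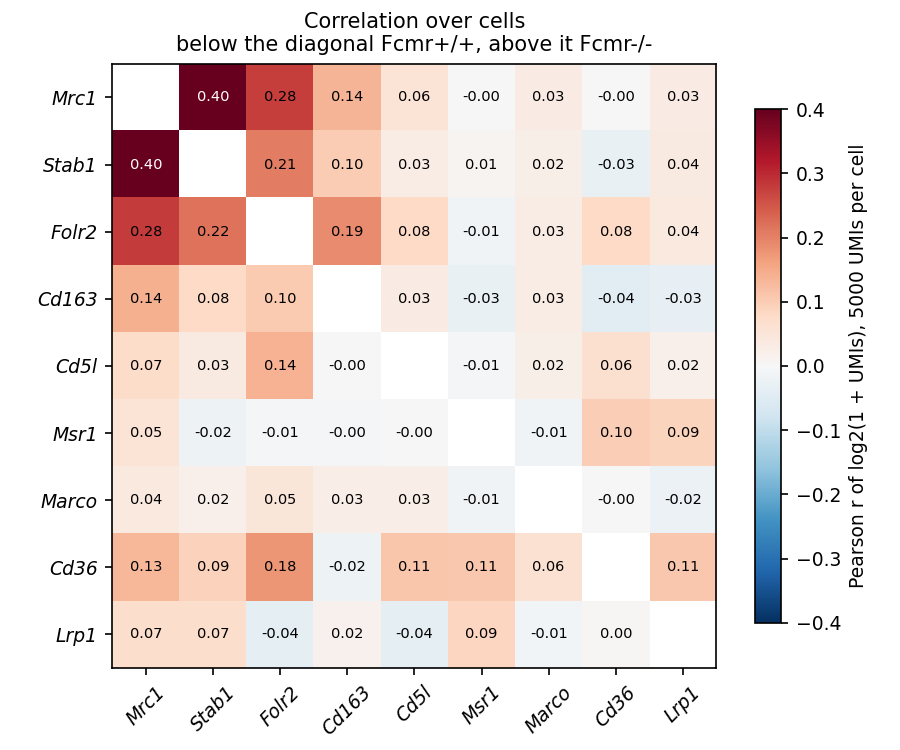
Pearson correlation over cells for each pair of the 9 genes, in Fcmr+/+ cells below the diagonal and in Fcmr-/- cells above it, after thinning to 5000 UMIs per cell. The group of Mrc1, Stab1 and Folr2 stands at the upper left, with r from 0.21 to 0.40, and most other pairs lie near 0.

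Among the 5033 genes compared, those most like Mrc1 by the lower of the correlations in the libraries were Sepp1 (selenoprotein P, r = 0.47 in each library), Dab2 (an endocytic adaptor, 0.45 and 0.43) and Gas6 (the ligand of MerTk, 0.44 and 0.41). Stab1 was most like Gas6 (0.43 and 0.40), Mrc1 and Sepp1 (0.38 and 0.41). Folr2 was most like Cbr2 (a carbonyl reductase, 0.34 and 0.37), Sepp1 and Timp2. Cd36 stood with other genes, namely Ctsd, a lysosomal protease (0.41 and 0.38), Ftl1, ferritin light chain (0.40 and 0.38), and Lpl, lipoprotein lipase (0.37 and 0.41). For Cd163, Cd5l, Msr1, Marco and Lrp1 the 3 most like genes had r under 0.2 in each library, which is weak.

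The genes were then read across cells ranked by gene lists of macrophage programs, comparing high with low cells separately in each library. High cells were at or above the 75th percentile of a list's thinned UMIs over all cells, and low cells at or below the 25th. Many cells tied at low counts, so the groups were unequal: 3500 Fcmr+/+ and 2488 Fcmr-/- cells were low in interferon genes, and 1272 and 2585 in tissue-resident genes. Cells high in a list of tissue-resident macrophage genes (Pf4, Sepp1, F13a1 and others) had more of Mrc1, Stab1, Folr2, Cd163, Cd5l and Marco. In Fcmr+/+ cells Mrc1 was at 383 CPM in the low and 1270.0 CPM in the high cells, a log2 ratio of high over low of 1.73. In Fcmr-/- cells it was at 284 and 926 CPM, a log2 ratio of 1.70. Folr2 differed by 2.36 and 2.27, Stab1 by 2.16 and 1.81, and Cd163 by 3.17 and 4.12. The rarer Cd5l differed by 2.89 and 1.23, and Marco by 2.19 and 1.59. The median over the 8701 genes was 0.08 and 0.05, and Lrp1 was near it, at 0.14 and 0.16.

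In cells high in MHC class II genes, which present antigen to T cells, Cd36 was lower, with a log2 ratio of high over low cells of -1.63 in Fcmr+/+ and -1.53 in Fcmr-/- cells. Folr2 had -1.41 and -0.92, and Stab1 had -1.34 and -0.83. Of the rare genes, Cd5l had -2.14 and -2.66, and Marco had -2.53 and 0.61. Msr1 differed by -0.27 and -0.09. The median over all genes was -0.09 in each library. Most genes lay between -1.11 and 1.29 in Fcmr+/+ cells and between -0.91 and 1.07 in Fcmr-/- cells. Stab1 and Marco lay inside this range in Fcmr-/- cells, and Msr1 did in both libraries. In cells high in hypoxia genes Stab1 was lower (-1.64 and -1.42) and Cd163 was lower (-1.59 and -2.05). So were Mrc1 (-0.79 and -0.89), Folr2 (-0.45 and -0.48), Cd5l (-0.79 and -0.43) and Marco (-1.74 and -0.39). Cd36 (0.22 and 0.61) and Msr1 (0.26 and 0.34) were higher, and Lrp1 had 0.01 and 0.35. Over all genes the median in the hypoxia comparison was -0.22 and -0.21.

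With interferon response genes Mrc1, Stab1, Folr2, Cd163, Cd5l, Cd36 and Lrp1 were lower in both libraries. Mrc1 differed by -0.47 and -0.45, and Cd36 by -0.69 and -0.97. The median over the 8701 genes was -0.08 in Fcmr+/+ cells and -0.03 in Fcmr-/- cells. Most genes lay between -0.53 and 0.92 in Fcmr+/+ cells and between -0.55 and 1.00 in Fcmr-/- cells. Mrc1, Folr2 and Lrp1 lay inside these ranges in both libraries, and Cd36 and Cd5l lay below them. Stab1 and Cd163 lay below the range in Fcmr+/+ cells only. Marco differed by -2.74 in Fcmr+/+ cells and by 0.37 in Fcmr-/- cells, the values of a gene with under 10 CPM in most groups. The cells high in interferon genes were 14.1% of Fcmr+/+ cells and 34.9% of Fcmr-/- cells, and those high in tissue-resident genes were 29.5% and 22.7%. Among cells low in interferon genes Mrc1 had a log2 ratio of -0.42 between the libraries and Cd163 one of -1.60, and among cells high in tissue-resident genes they had -0.46 and -0.95.

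**Figure D5:**
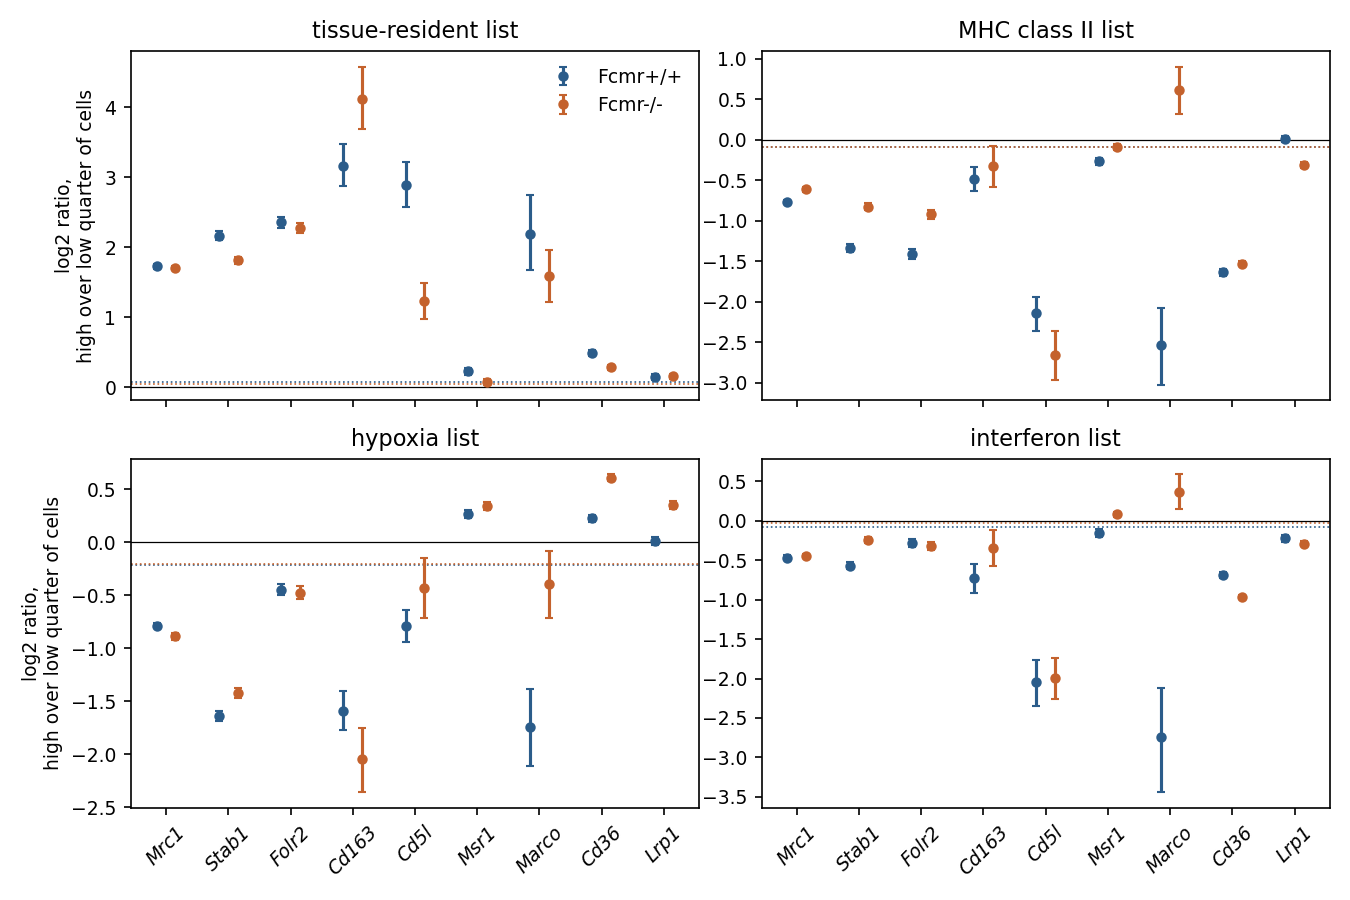
Log2 ratio of CPM between cells at or above the 75th and at or below the 25th percentile of each of 4 gene lists, in Fcmr+/+ cells (blue) and Fcmr-/- cells (orange). Bars are exact 95% intervals of counting error and dotted lines the median over 8701 genes in each library. Mrc1, Stab1, Folr2 and Cd163 lie between 1.70 and 4.12 for the tissue-resident list, and Cd5l and Marco between 1.23 and 2.89. Msr1 and Lrp1 lie between -0.31 and 0.35 in every panel.

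Uptake of tumor material was approached through melanoma transcripts. Cd36 was higher in cells high than in cells low in a list of melanoma genes, at 722 against 336 CPM in Fcmr+/+ cells and 863 against 353 CPM in Fcmr-/- cells. Gpnmb, which macrophages also express, made up 938 of the 980 CPM of that list in Fcmr+/+ cells and 1005 of 1071 CPM in Fcmr-/- cells. Without Gpnmb, cells with at least 1 UMI of the other melanoma genes had 477 CPM of Cd36 in Fcmr+/+ cells, beside 500.4 in the rest of that library, and 534 beside 538 CPM in Fcmr-/- cells. These splits used unlike limits, at most 1 against at least 7 UMIs with Gpnmb and 0 against at least 1 without it. Cells were not ranked by Gpnmb alone. In the split without Gpnmb, log2 ratios of high over low cells for Marco were 0.27 in Fcmr+/+ and 1.24 in Fcmr-/- cells. Cd5l had 0.52 and 0.20, Folr2 had 0.15 and 0.23, and Cd163 had -0.28 and 0.15. Mrc1, Msr1, Stab1 and Lrp1 lay between -0.01 and 0.11. Most of the 8701 genes lay between -0.24 and 0.25 in Fcmr+/+ cells and between -0.22 and 0.21 in Fcmr-/- cells. The source of these differences was not tested.

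Other genes of the uptake pathway, from lists written with earlier results of these data known, were mostly near the background shares of 2.17% and 2.64%. Of 20 other scavenger receptors, 10 had at least 5 CPM, and 1 was lower (Colec12, 8.07 against 4.31 CPM) and 2 were higher (Scarf1 and Cd300lf) by 1.5-fold or more. Of 7 measured mannose and C-type lectin receptors 0 were lower and 1 was higher, Clec12a, at 139 against 229.8 CPM. The 11 LDL receptor family genes, the 23 genes of the clathrin and endosome machinery, the 15 lipid cargo genes and the 7 folate genes had 0 lower and 0 higher. Of the shedding enzymes and their inhibitors, 1 of 12 was lower, Timp1.

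Of 9 heme and iron genes, 2 were lower: Hmox1, heme oxygenase, at 2998 CPM in Fcmr+/+ cells and 1721 CPM in Fcmr-/- cells, and Tfrc, the transferrin receptor, at 132 and 68.5 CPM. Of 22 transcriptional regulators of macrophages 3 were lower, Klf2, Id3 and Irf4, and 0 were higher. Spi1, which encodes PU.1, had a log2 ratio of -0.10, and Maf had 0.10. Of 11 genes responding to glucocorticoids or to IL-10 signaling, 2 were lower, Fkbp5 at 40.4 against 11.7 CPM and Il10 at 116 against 49.6 CPM. Of 9 genes of the IL-4 response 2 were lower, Ccl17 and Retnla, and 1 was higher, Socs1. Of 8 measured tissue-resident genes 3 were lower (Gas6, Cbr2 and Sepp1) and 1 was higher (Ccl8, at 627 and 1384 CPM).

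Markers of other cells that the sort could hold were compared for the same reason. The summed level of 10 dendritic cell genes was 33.5 CPM in Fcmr+/+ cells and 45.7 CPM in Fcmr-/- cells, of 8 neutrophil genes 31.2 and 47.7 CPM, of 7 T and NK cell genes 0.942 and 15.4 CPM, of 4 B cell genes 12.4 and 10.4 CPM, of 7 endothelial genes 7.06 and 12.7 CPM and of 7 fibroblast genes 1.36 and 1.196 CPM. The summed level of 5 erythroid genes was lower in Fcmr-/- cells, at 25.7 and 14.0 CPM. Of these genes, 2 had at least 5 CPM, Hbb-bs and Hba-a1, and both were lower by 1.5-fold or more, with log2 ratios of -0.91 and -0.71, though near-identical copies of these globin genes can share reads. The erythroid sum was highest in cluster 5, where Cd163 was at 3.62 CPM in Fcmr+/+ and 2.44 CPM in Fcmr-/- cells, and Cd5l at 4.87 and 4.77 CPM. The 9 monocyte genes had 10401 and 10446 CPM, of which Lyz2 alone made up 8942 and 9011 CPM. Of the 8 monocyte genes with at least 5 CPM, 2 were higher by 1.5-fold or more and 1 was lower. The higher ones were Ly6c2, at 31.1 and 108 CPM, and Plac8, at 138 and 233 CPM. The lower one was Hp, at 21.8 and 12.9 CPM. The neutrophil gene Ngp was at 0 in both libraries, and Camp and Ly6g were at 0 in Fcmr+/+ cells. The part of other cells in the ratios of the receptor genes was not tested.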

How the data were processed

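Droplet-based RNA libraries of sorted tumor phagocytes, 1 for each genotype, were read as deposited. The files hold the authors' UMI counts, which Cell Ranger had produced on GRCm38 (mm10) and which were not normalized. Per the labels, Seurat 2.1.0 was used in the original processing. Cells with 200 to 7000 genes and at most 30% mitochondrial UMIs were kept, which left 128408544 UMIs in Fcmr+/+ and 124630621 in Fcmr-/- cells. A symbol shared by several identifiers went to the gene with the most UMIs, and 0 columns were left unmatched.

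UMIs were summed over cells and divided by the total (CPM), and ratios were taken without a pseudocount. Intervals were exact at 95% (Poisson for UMIs, Clopper-Pearson for shares, conditional binomial for ratios) and hold counting error alone. A count of 0 was taken to allow 3 counts. Clustering used Seurat 5.3.0 in R 4.3.3 (10 principal components, 30 neighbors, resolution 0.8), without the 9 genes among the variable genes. Each cell was thinned to 5000 UMIs for shares and correlations, and 0 cells were shallower. Scrublet, in scanpy 1.11.5, called 0 doublets in each library, so leaving out the top 5% of its scores was tried in its place. Other steps used Python 3.11.15, numpy 2.4.6 and scipy 1.17.1, and were tested on simulated data.

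The 9 genes, the lists and the motifs were chosen with earlier results of these data known. Other genes were named by a rule: the 2 highest and 2 lowest ratios of each list, the 3 genes most like each of the 9 over cells, the 10 leading genes of each cluster and genes of the sort. Spi1, Maf, Klf2, F13a1, Lyz2 and 3 neutrophil genes at 0 were named beyond it, after their values were seen. So were the melanoma list without Gpnmb and 2 of the alternatives. Alternatives covered scaling, thinning, limits on cells and genes, doublets, the pseudocount, the fold limit and the clustering. Sequences are from RefSeq on GRCm38.p6. A gene of the regulator list is not reported here.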

Additional observations from a re-analysis of the deposited data

Results flagged for a closer look

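The ratio of Cd5l between the libraries went in opposite directions in different clusters. In cluster 1 its log2 ratio, Fcmr-/- over Fcmr+/+, was -3.42 (95% interval of counting error -3.90 to -2.93). There the 102 Fcmr+/+ cells held 57 UMIs and the 2369 Fcmr-/- cells held 106. In cluster 7 it was 2.83 (2.26 to 3.44), where 643 Fcmr+/+ cells held 33 UMIs and 402 Fcmr-/- cells held 110. Cells with at least 5 UMIs numbered 3 and 0 in cluster 1 and 0 and 4 in cluster 7, so few cells carry each value. The difference between the clusters was not tested.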

How the results depend on the processing

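The counts of 2 lower and 0 higher genes held under all alternatives run, except that 1 gene, Marco, was higher by 1.5-fold with cells of at most 5000 genes. The median log2 ratio of the 9 genes, -0.036, was -0.0808 as a mean over cells, -0.0643 with cells thinned to 5000 UMIs, -0.0141 with at most 5000 genes, -0.0831 without cluster 1 and -0.21 without the cells at or above the 75th percentile of interferon genes. The last 2 alternatives were chosen after seeing the data. The median of -0.21 is the ratio of Marco, a rare gene, while Mrc1 had -0.45, Folr2 -0.47 and Stab1 -0.01 there. The median at Fcmr+/+ cluster shares, 0.14, reversed to -0.0341 with 20 principal components, and the cause was not tested. Of the 54 values of these summaries under alternatives, 47 moved by less than their counting error or kept their count. Over whole libraries the log2 ratio of Mrc1 ran from -0.58 to -0.45, of Folr2 from -0.57 to -0.40, of Cd163 from -1.73 to -1.20 and of Cd5l from -1.63 to -1.15, and Marco was the 1 gene that changed sign, from -0.21 to 0.66. Of all genes with at least 20 CPM in either library 89 were lower and 136 higher by 1.5-fold, and of genes with over 3 UMIs 1763 and 1394, in place of 189 and 230. No paired analysis was possible because each genotype had 1 library. Depth limits Marco, Cd5l and Cd163 most, whose UMIs within single clusters were often under 100.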
